A study of Mus musculus with 5 samples.

Results

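The vertebrate relatives of sine oculis, Six2 to Six6 among them, encode homeodomain transcription factors with a further conserved domain, through which they bind partner proteins. Members of the EYA family act as their co-activators, while DACH and Groucho (TLE) proteins act as co-repressors. Six3 and Six6 are known for the development of the forebrain and eye, Six2 for keeping nephron progenitors of the kidney in an undifferentiated state, Six4 for myogenesis, and Six5 lies next to the myotonic dystrophy gene Dmpk. H3K27me3, the trimethylated form of lysine 27 on histone H3, is the product of Ezh2, the methyltransferase of Polycomb repressive complex 2. It is known for covering the loci of developmental transcription factors in tissues where those genes are kept silent.

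The 5 sine oculis homeobox genes analysed here are Six2, Six3, Six4, Six5 and Six6. They were chosen by name, and 1 locus was taken to be a gene body in the GENCODE M21 annotation (genome build GRCm38) with 5 kb on each side. They stand among 21938 protein-coding genes compared in the same way, and their loci hold 70 of the 81017 peaks in the deposited lists.

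H3K27me3 was profiled by chromatin immunoprecipitation followed by sequencing (ChIP-seq) in the mesenchyme of molars from C57BL/6 mice, wildtype and at postnatal day 3, taken after the dental epithelium was dissected away. There were 2 H3K27me3 libraries, 2 input libraries of chromatin that was not immunoprecipitated, and 1 library made with a nonspecific IgG antibody. The study deposited 3 peak lists, which set H3K27me3 replicate 1 against its input, that library again against IgG, and replicate 2 against its own input. Whether the 2 H3K27me3 libraries are from different animals or pools is not in the labels, and each SD below measures only the spread between these 2 libraries, which may be technical.

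The lists hold 22757, 24881 and 33379 peaks. Replicate 1 kept 30369351 H3K27me3 tags of 49 bp after duplicate removal, and replicate 2 kept 49947919 tags of 74 bp. The peak caller modelled a fragment of 46 bp for replicate 1 and 71 bp for replicate 2, each shorter than its own tag. The shortest replicate 1 peaks at the 5 loci were also 46 bp long. The replicates differ in depth, tag length and modelled fragment length, whose effects cannot be told apart. What these short modelled fragments mean for peak lengths, covered shares and overlaps was not tested. The mark was also listed in both replicates at 5 of 8 marker genes of dental mesenchyme and 1 of 5 of dental epithelium, with none of 3 for endothelium and 1 of 3 for leukocytes, beside 15.7% of all protein-coding genes, and H3K27me3 does not report whether a gene is transcribed. In whole tissue, a few cells that carry the mark fully and many cells that carry it in part cannot be told apart.

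A selection of sequences under peaks of both H3K27me3 libraries is given first, because there these loci were called in both. The IgG-called and replicate 2 lists shared 8 stretches, 4 at Six3, 3 at Six6 and 1 at Six2. Printed are the longer stretches that lie in all 3 lists, and the 1 at Six2, which had no peak against input. Of the others, 2 lie in the Six3 body and 2 at Six6. The first 4 printed are strands in the direction of the named gene, in GRCm38. The fifth and sixth are the 250 bases before the RefSeq start of the gene, credited to RefSeq on GRCm38.p6. They set the Six3 start, with a peak in replicate 1 against input only, against the Six5 start, with no peak in any list. Capitals mark each C followed by G, the pair at which vertebrate DNA is methylated and which is dense in CpG islands.
Six3, upstream, in all 3 lists (chr17:85608851-85609052, plus strand): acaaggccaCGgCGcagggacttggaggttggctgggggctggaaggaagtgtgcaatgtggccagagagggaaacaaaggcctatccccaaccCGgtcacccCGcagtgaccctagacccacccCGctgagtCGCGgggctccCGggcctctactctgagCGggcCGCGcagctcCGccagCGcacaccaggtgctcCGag
Six3, upstream, in all 3 lists (chr17:85612193-85612324, plus strand): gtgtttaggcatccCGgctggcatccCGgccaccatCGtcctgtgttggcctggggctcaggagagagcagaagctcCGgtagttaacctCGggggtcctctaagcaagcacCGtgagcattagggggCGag
Six6, upstream, in all 3 lists (chr12:72937470-72937497, plus strand): tctctggccccagagccctttcctctag
Six2, downstream, in the IgG-called and replicate 2 lists (chr17:85682489-85682542, minus strand): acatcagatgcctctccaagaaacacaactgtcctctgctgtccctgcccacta
Six3, before the RefSeq start (chr17:85620584-85620833, plus strand): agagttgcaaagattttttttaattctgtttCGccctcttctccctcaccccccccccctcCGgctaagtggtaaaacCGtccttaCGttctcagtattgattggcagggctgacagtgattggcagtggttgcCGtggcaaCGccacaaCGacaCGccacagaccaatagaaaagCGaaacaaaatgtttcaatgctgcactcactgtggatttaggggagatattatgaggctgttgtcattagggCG
Six5, before the RefSeq start (chr7:19094294-19094543, plus strand): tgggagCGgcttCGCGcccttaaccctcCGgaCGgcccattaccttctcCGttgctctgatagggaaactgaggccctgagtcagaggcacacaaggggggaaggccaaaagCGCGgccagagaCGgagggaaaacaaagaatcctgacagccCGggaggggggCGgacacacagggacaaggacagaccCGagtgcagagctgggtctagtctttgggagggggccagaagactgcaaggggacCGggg

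The 2 Six3 stretches lie in exons of Six3os1, the long noncoding RNA gene on the opposite strand that starts within Six3 and runs upstream of it. They hold 14 CG pairs in 202 bases and 7 in 132 bases, or 69.3 and 53.0 pairs per kb. The Six6 stretch of 28 bases lies in an intron of 4930447C04Rik, and it holds 0 pairs, as does the Six2 stretch of 54 bases. The short lengths of these last 2 stretches limit what such a count can show.

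Peaks were concentrated at Six3 and Six6, the forebrain and eye genes, and were few or missing at Six2, Six4 and Six5. Of the 5 loci, 3 (Six3, Six4 and Six6) had at least 1 peak in both replicates against input, compared with 15.7% of all protein-coding genes. Six2 had peaks in replicate 2 and in the IgG-called list but none in replicate 1 against input, and Six5 had none in any list, as did 51.0% of all protein-coding genes. A count of at least 1 peak says little about how much of a locus is covered, so the share of bases under peaks is given next.

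Six3 had 18 peaks in the input-called list of replicate 1, 17 in its IgG-called list and 8 in the list of replicate 2. These covered 12.7%, 14.5% and 9.85% of its 25.695 kb locus, a mean of 11.3% ± 2.02 (SD, n = 2 replicates against input). All 3 lists were high at Six3, and the mean was above that of 99.8% of protein-coding genes. Six6 had 6, 8 and 7 peaks in the same order of lists, covering 5.12%, 13.1% and 11.8% of 15.008 kb, a mean of 8.48% ± 4.75 (SD, n = 2). Its replicate 1 value against input was the low one, while the same library set against IgG gave a share as high as replicate 2, and the mean was above that of 99.6% of genes. At least 6 peaks in each replicate, the count both genes reached, were found at 1.24% of protein-coding genes. That cutoff was taken from the counts of these genes and not adjusted for locus length, so the percent is only a description.

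Six2 had 0, 1 and 2 peaks, covering 0%, 0.386% and 3.08% of 13.998 kb, a mean of 1.54% ± 2.18 (SD, n = 2). Its SD exceeded its mean, so the level at Six2 was not settled by these libraries. Six4 had 1 peak in each list, covering 0.193%, 0.193% and 0.902% of 23.848 kb, a mean of 0.547% ± 0.501 (SD, n = 2). Six5 had no peak in its 13.956 kb, and the nearest peak to its 5′ end was 26868 bp away in the input-called, 70054 bp in the IgG-called and 38421 bp in the replicate 2 list. Neither of the genes that flank Six5, Dmpk and Gm4969, had a peak in its body in any list.

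**Figure D1:**
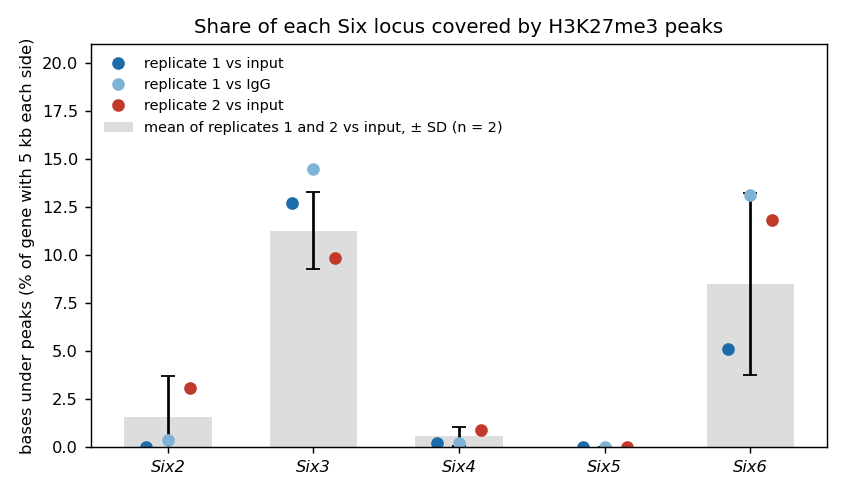
Share of bases under H3K27me3 peaks (percent of the gene with 5 kb on each side) at the 5 loci. Points are the 3 lists, and grey bars with error bars are the mean ± SD of the 2 replicates against input, with error bars cut off at 0: Six3 (11.3%) and Six6 (8.48%) stand above Six2, Six4 and Six5, and the Six6 points are spread from 5.12% to 13.1%.

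The order of the mean shares was Six3, Six6, Six2, Six4 and Six5. Six3 and Six6 differed by 2.79 percentage points, less than the SD of Six6, and Six3 minus Six6 was 7.58 points in replicate 1 and -1.99 in replicate 2. Six6 exceeded Six2 by 6.94 points, more than the larger SD, and was higher within each library, by 5.12 and 8.76 points. Six2 and Six4 differed by 0.992 points, within the SD of Six2, and Six2 minus Six4 was -0.19 points in replicate 1 and 2.18 in replicate 2. Six4 exceeded Six5 by 0.547 points, which rests on 1 peak per replicate and is only just above the SD of Six4 (0.501). The order of these neighbours thus turned between the libraries for Six3 and Six6 and for Six2 and Six4, and no test was made on 2 libraries. The plot of covered shares shows the split between the first pair and the other 3 genes.

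Across the 5 loci the share averaged 3.60% in replicate 1 with input as control, 5.64% with IgG as control and 5.13% in replicate 2. Over the replicates against input this was 4.37% ± 1.08 (SD, n = 2). Over all protein-coding genes the mean was 0.269% ± 0.0661 and the median was 0% in each list. The median locus of the 5 was Six2, with 1.54%, so the mean of the 5 reflects Six3 and Six6. With only peaks of a fold enrichment of at least 3 (the ratio of the H3K27me3 signal to its control, explained below), the mean share was 0.475%.

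The Six3 peaks were spread over the gene and its upstream flank. In the 5 kb upstream they covered 16.2% of bases in the input-called, 15.0% in the IgG-called and 19.8% in the replicate 2 list. The gene body was covered to 15.1%, 18.0% and 9.82%, and the 5 kb downstream to 1.66%, 3.16% and 0%. In all 3 lists the downstream flank held the least. Of the 18 replicate 1 peaks called against input, 5 lay in the upstream flank, 8 in introns, 1 in a coding exon, 3 in non-coding exons and 1 downstream. Of the 8 replicate 2 peaks, 3 lay upstream, 3 in introns and 2 in non-coding exons. Gene body, introns and exons here are those of GENCODE, in which Six3 starts at chr17:85613608. The RefSeq start printed above follows chr17:85620833. Peaks between these starts, several of the intron peaks among them, thus count as within the body but lie upstream of the RefSeq start. Six3os1 overlaps much of this region, and 14, 14 and 6 peaks fell in its body, covering 14.8%, 13.6% and 10.9% of it. ChIP-seq carries no strand, so a peak there cannot be assigned to Six3 or to Six3os1.

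The Six6 peaks lay on both sides of the gene. The 5 kb upstream, where 4930447C04Rik runs on the other strand, were covered to 1.28% in the input-called, 11.6% in the IgG-called and 16.8% in the replicate 2 list. The short gene body was covered to 6.79%, 7.31% and 8.65%, and the 5 kb downstream, which reach into the long noncoding RNA gene Gm26709, to 7.30%, 20.5% and 10.04%. The body was the part on which the lists lay closest, and the upstream flank the part on which they differed most. In replicate 1 the coverage of both flanks of Six6 thus depended on the control library.

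All peaks of Six2 lay in its downstream flank, and its body and upstream 5 kb had none in any list. The IgG-called peak of 54 bp lies within the larger of 2 replicate 2 peaks (288 bp). Its fold enrichment was 3.04 against IgG, above that of 91.1% of peaks in that list, and the replicate 2 peak had 2.53. The replicate 1 library therefore carried signal at this position that was listed against IgG and not against input. At Six4 the replicate 1 peak was 46 bp long, at the same bases against input and IgG, in a non-coding exon 8501 bp from the 5′ end. The replicate 2 peak was 215 bp long, in an intron 2832 bp from the 5′ end. These 2 peaks lay 5455 bp apart, so no base of Six4 was called in both libraries.

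**Figure D2:**
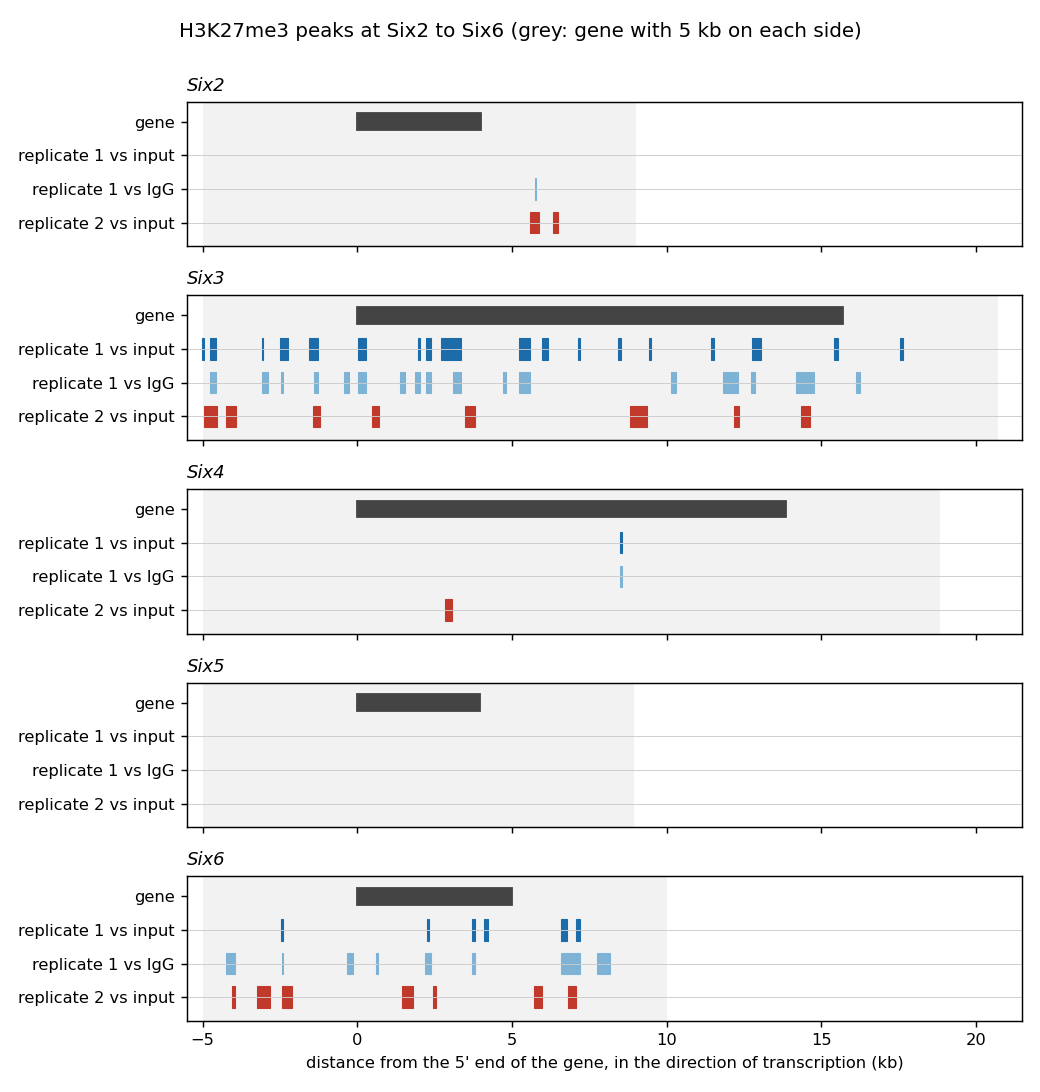
Positions of the peaks at each locus from Six2 to Six6, by distance in kb from the 5′ end of the gene in the direction of transcription, with 1 row for each of the 3 lists, the gene as a dark box and the analysed locus in grey. Peaks are spread over Six3 (18, 17 and 8) and Six6 (6, 8 and 7), those of Six2 lie past its 3′ end, Six4 has 1 in each list, at another place in replicate 2 than in replicate 1, and Six5 has none.

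The start of Six3 was the only one of the 5 gene starts with a peak within 1 kb in both replicates, which was the case at 1.04% of protein-coding genes. In single lists it was again Six3 alone in replicate 1 against input and in replicate 2, beside 3.87% and 4.16% of genes, and Six3 and Six6 in the IgG-called list, beside 4.52%. The nearest peak lay 10 bp from the annotated 5′ end of Six3 in replicate 1 against both controls and 480 bp from it in replicate 2. At Six6 the distances were 2251 bp against input, 125 bp against IgG and 1460 bp in replicate 2. At Six2 they were 7246, 5732 and 5577 bp. The GENCODE start of Six3 lies upstream of its RefSeq start, and at the RefSeq start printed above the only peak was 1 of 51 bp in replicate 1 against input (fold enrichment 3.05), with none against IgG or in replicate 2. The count of gene starts with a peak thus rests on the GENCODE start of Six3, which lies inside Six3os1.

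Read as stretches, with peaks no more than 5 kb apart joined, Six3 lay in 1 domain of 28.958 kb (23 peaks) in replicate 1 against input. By length it ranked 21 of 17202 domains in that list, of which 60 reached 20 kb. Against IgG the domain was 29.601 kb long and ranked 31 of 18075. In replicate 2 the locus broke into a domain of 8.79 kb that held the 5′ end and another of 5.807 kb, the first ranking 148 of 29543. Six6 lay in 1 domain that held its 5′ end in every list, of 13.024 kb, 16.389 kb and 11.112 kb, ranking 141, 132 and 95. The 2 Six3 domains of replicate 2 were 5006 bases apart, just past the joining limit. With peaks joined up to 10 kb apart, an alternative chosen after seeing the data, the domain at the Six3 start was 35.255 kb long in replicate 1 against input, 36.895 kb against IgG and 38.604 kb in replicate 2, while that at the Six6 start was 23.049, 16.389 and 11.112 kb long. By length these ranked 62 of 15548, 65 of 16339 and 17 of 27231 domains at Six3, and 172, 350 and 445 at Six6. The break in the replicate 2 domain at Six3 and the ranks of both genes thus rest on the joining limit.

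In bins of 10 kb out to 100 kb, coverage was highest next to the Six3 and Six6 starts. The first 10 kb downstream of the Six3 start were covered to 19.0% in the input-called, 14.9% in the IgG-called and 10.9% in the replicate 2 list, and the 10 kb upstream to 13.0%, 9.38% and 9.88%. For Six6 the same bins held 7.05%, 13.9% and 9.35% downstream, and 1.91%, 7.05% and 8.42% upstream. The bin 80 to 90 kb upstream of Six6 held 2.86%, 7.01% and 1.72%. In replicate 1 it was thus above the adjacent upstream bin against input and close to it against IgG. Six4 had no peak in any list in the 100 kb upstream of its 5′ end. Six2 and Six3 are neighbours that point toward each other on chromosome 17, and the high bins 60 to 80 kb downstream of the Six2 start lie at the Six3 locus.

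**Figure D3:**
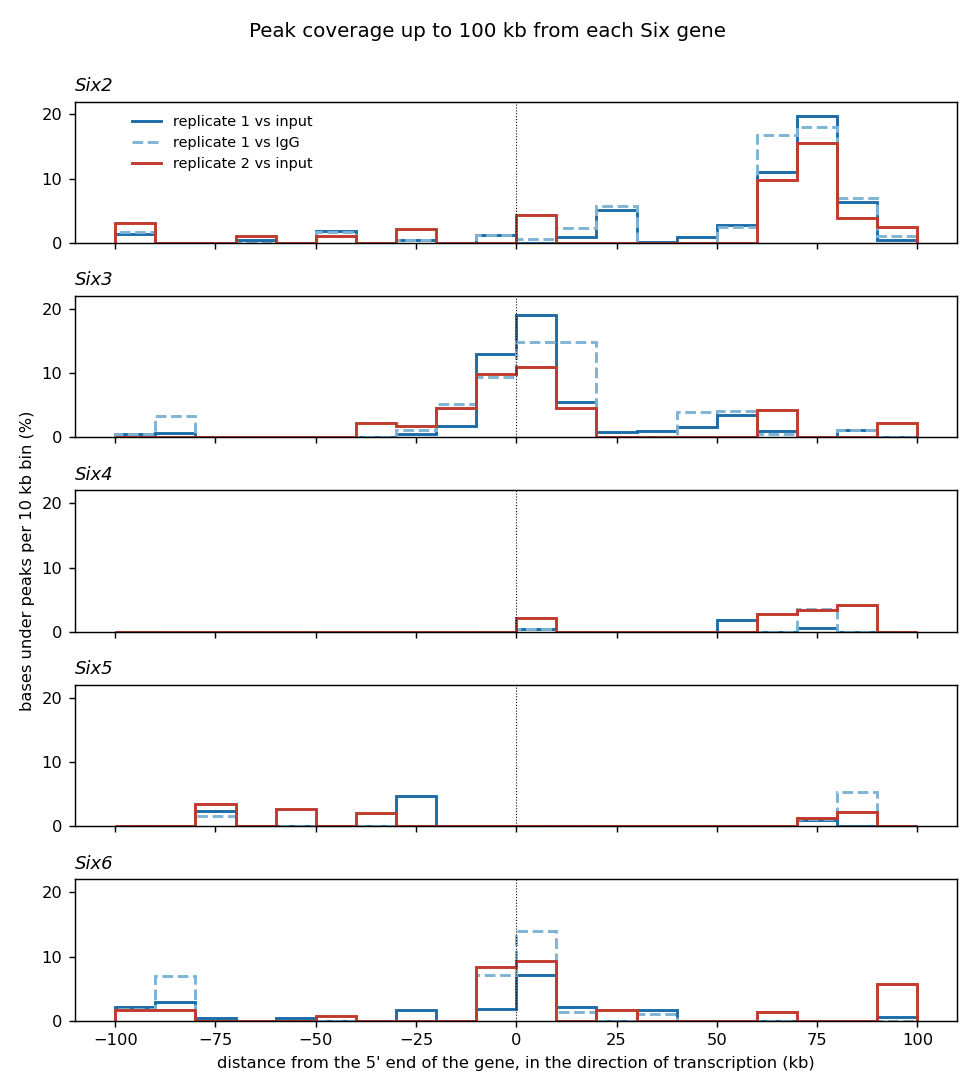
Percent of bases under peaks in 10 kb bins up to 100 kb on each side of the 5′ end of each gene from Six2 to Six6, in the direction of transcription, for the 3 lists (the dashed line is replicate 1 against IgG). Coverage peaks beside the Six3 start (19.0%, 14.9% and 10.9% in the first 10 kb) and the Six6 start, stays low around Six4 and Six5, and the high bins 60 to 80 kb downstream of Six2 lie at the Six3 locus.

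Single peaks at the 5 loci were weak in every list. The deposited fold enrichment divides the pileup of H3K27me3 tags by the control background after 1 is added to both, and peaks were called at a p-value cutoff of 0.005. The 25 replicate 1 peaks called against input had a fold enrichment of 2.51 to 3.31 (median 2.68, against 2.63 for the whole list), the 27 IgG-called peaks 2.54 to 3.55 (median 2.73, against 2.66), and the 18 replicate 2 peaks 2.41 to 3.03 (median 2.56, against 2.45). Above the median of their list lay 16 of 25, 16 of 27 and 16 of 18 of them. The mean pileups were equal to 4 to 6.08 tags in the input-called, 4 to 6.81 in the IgG-called and 6 to 7.8 in the replicate 2 list. At these depths the position and presence of a single peak carry large counting error. Fold enrichments of the 2 replicates are not on the same scale, since the added 1 weighs more at lower depth.

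The strongest replicate 1 peak of the 5 loci lay upstream of Six3 within Six3os1 (chr17:85611111-85611373), with a fold enrichment of 3.31 against input. Against IgG the peak at this position had 3.55, also the highest of that list at the 5 loci. Replicate 2 had no peak there, and its nearest was 801 bp away. The strongest replicate 2 peak lay in a coding exon of Six6 (chr12:72941352-72941693), with a fold enrichment of 3.03, and the nearest replicate 1 peak against input was 450 bp away. The strongest single peaks of each library were thus not listed in the other.

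**Figure D4:**
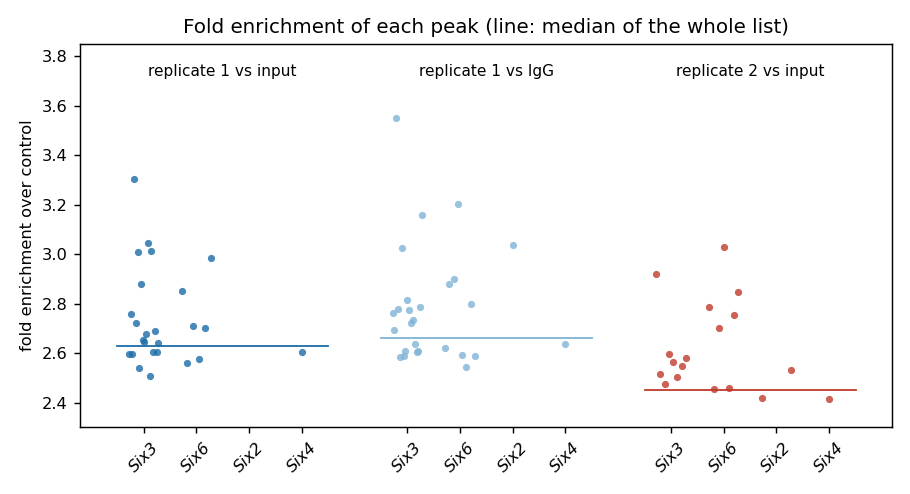
Deposited fold enrichment over control of each peak at Six3, Six6, Six2 and Six4 (Six5 has none), for the 3 lists, with a line at the median of the whole list. The axis starts at 2.3, and the peaks lie between 2.41 and 3.55, many of them close to the median of their list.

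The replicates marked the same loci more than the same bases. Of the 25 replicate 1 peaks called against input, 5 overlapped a replicate 2 peak by at least 1 base, or 20% (95% Wilson interval 8.86 to 39.1), while in the whole list 649 of 22757 did (2.85%). From the other side, 4 of 18 replicate 2 peaks (22.2%) overlapped a replicate 1 peak, against 1.90% of the whole list. These intervals cover counting error only and treat peaks as independent, and loci dense in peaks offer more chances of overlap. All 5 overlaps lay in the flanks, and 0 of the 16 replicate 1 peaks in gene bodies overlapped a replicate 2 peak. With IgG as control, the same library had 8 of 27 peaks overlapped by replicate 2 (29.6%), among them 2 of the 15 in gene bodies, both in non-coding exons of Six3. At Six3, 1 of the 3 overlaps rested on 1 base.

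At Six3, 354 of the 5441 bases called in either replicate were called in both (6.51%), of which 334 were also in the IgG-called list. At Six6 it was 33 of 2513 bases (1.31%). The distance from a replicate 1 peak to the nearest replicate 2 peak had a median of 723.5 bp at Six3, with 12 of 18 within 1 kb, and 77.5 bp at Six6, with 4 of 6 within 1 kb. These counts within 1 kb include peaks that overlapped a replicate 2 peak, 3 at Six3 and 2 at Six6. Within that distance, replicate 1 peaks at Six3 lay beside a replicate 2 peak more often than on one. At Six6 this was not the case. How close the peaks would lie from their density alone was not computed. Changing only the control of replicate 1 from input to IgG kept 16 of the 25 peaks (64%, interval 44.5 to 79.8), against 51.0% of the whole list. By gene this was 10 of 18 at Six3, 5 of 6 at Six6 and 1 of 1 at Six4.

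The 5 loci are rich in CG pairs, whether or not they carry peaks. Over the locus, Six2 held 39.8 CG pairs per kb, Six3 29.6, Six5 24.4, Six6 23.9 and Six4 16.5, against a median of 11.6 over all protein-coding genes. Six2 was above 99.9% of genes and Six5 above 96.4%, and both had few or no peaks, so the order of CG density was not the order of covered share. At the 300 bases around the RefSeq starts, Six2 held 37 pairs, more than 94.4% of 32851 RefSeq promoters, and no peak in any list. The Six3 start held 14, against a median of 7.

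Within Six3, bases under peaks held 30.6 pairs per kb in the input-called, 37.3 in the IgG-called and 34.0 in the replicate 2 list, and the other bases of the locus 29.4, 28.3 and 29.1. Within Six6, bases under peaks held 3.90, 14.2 and 40.0 in the same order, and the other bases 25.0, 25.4 and 21.8. Replicate 1 peaks at Six6 thus lay in sequence poorer in CG pairs than the rest of the locus, and replicate 2 peaks in sequence richer in them. How much poorer depended on the control, and the value against input rests on 769 bases. Base composition, depth, tag length and modelled fragment length moved together with the replicate here, and their part in the difference was not tested.

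Genes that encode partners of these factors had peaks in part, with small covered shares. Of 12 such genes (Eya1 to Eya4, Dach1, Dach2, Tle1 to Tle4, Aes and Sobp), 4 had a peak in both replicates, namely Eya1, Eya2, Eya4 and Tle1, beside 15.7% of all protein-coding genes. In single lists 4 had a peak in the input-called, 6 in the IgG-called and 9 in the replicate 2 list, beside 25.0%, 25.9% and 35.7% of all protein-coding genes. These genes with their flanks run from 16875 to 548877 bp, up to far longer than Six3, and their mean covered shares ran from 0% to 0.252% with a median of 0.130%, against a mean of 0.269% and a median of 0% over all protein-coding genes. Eya1, a co-activator with phosphatase activity, had the highest, 0.252% ± 0.273 (SD, n = 2), from 4, 3 and 1 peaks, above 77.0% of genes. Eya2 had 0.239% ± 0.0466 (SD, n = 2), above 76.0% of genes. Eya3, Tle3 and Aes had no peak in any list. The mean share of Eya1 was below that of Six4 by less than the SD of Six4.

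The protein-coding genes most like Six3 in covered share over the 3 lists were Otx2, a homeobox gene of forebrain and eye, with 13.8%, 15.4% and 10.3% (1.47 percentage points away), and Hoxa11, a posterior homeobox gene, with 13.9%, 14.7% and 11.7% (2.21 points). Those most like Six6 were Hoxd13 (1.17 points) and Hoxd10 (1.85 points), posterior Hox genes. For Six4 they were Ccdc73 (0.0242 points) and Zfp148 (0.0377 points). The distance is taken over 3 lists that come from 2 H3K27me3 libraries, and is a description.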

How the data were processed

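ChIP-seq was measured in 5 libraries, grouped by the descriptions in the labels. By the study's account, BWA mapped the reads to GRCm38, only unique alignments were used, and SAMtools sorted them. The authors called broad peaks with MACS 2.1.1.20160309 at a p-value cutoff of 0.005, without pooling libraries. The authors deposited the pileup of each peak, a coverage signal scaled to the smaller library of a pair. The deposited fold enrichment is a ratio with a pseudocount of 1, and the deposited p-values are on a −log10 scale. The other 2 deposited formats of each list held equal peaks and were not used.

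Loci were GENCODE M21 gene bodies with 5 kb on each side, and a 5′ end was that of the gene. Counts of peaks, covered bases, gaps and overlaps (at least 1 base) were computed with Python 3.11.15, pandas 2.3.3 and numpy 2.4.6, and 95% Wilson intervals with scipy 1.17.1. The counting was tested on simulated data, and 500 of 500 windows were recovered. A percentile is the percent of 21938 protein-coding genes outside mitochondrial DNA with a lower share. No test across samples was made, since there are 2 H3K27me3 libraries of 1 condition. Every one of the 5 genes and every partner gene of the lists was counted. The genes named as most alike are the 2 nearest by covered share in the 3 lists, for members with a peak in both replicates. The members and lists were chosen with earlier results of these data known. Alternatives were the flank, the peak threshold, the overlap, the promoter width, the control, the number of replicate 2 peaks kept, leaving out each replicate and, chosen after seeing the data, the joining distance of domains. Replicate 2 peaks were kept by lowest p and its tags were not reduced, so depth itself was not varied.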

Additional observations from a re-analysis of the deposited data

How the results depend on the processing

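Of 51 alternatives over 6 results, 33 left the value within the limit set for it and 18 moved it. For the mean share of the loci, that limit was the SD between the 2 replicates. Leaving out either replicate cannot move a mean of 2 values by as much as their SD. For the mean share, these 2 settings could therefore only be counted among the 33, and they say nothing about its stability. A fold enrichment of at least 3 left 0 of the 5 loci, 0 of their promoters and 0 partner genes with a peak in both replicates, a mean share of 0.475% and 0% of replicate 1 peaks overlapped by replicate 2. A −log10 p of at least 3 left 1 locus (Six3), 0 promoters, 0 partner genes, a mean share of 1.11%, 0% overlapped by replicate 2, and 100% of input-called peaks (1 of 1) overlapped by IgG-called ones. The fold threshold keeps 2040 of the 22757 replicate 1 peaks and 522 of the 33379 replicate 2 peaks, and the p threshold 744 and 3681. At changed thresholds, promoter widths or list sizes, the share of all protein-coding genes with a peak was not computed. The counts of loci, promoters and partner genes there thus cannot be set against it. A flank of 10 kb gave a mean share of 3.20%, and promoters of 5 kb on each side gave 2 (Six3 and Six6). The share of replicate 1 peaks overlapped by replicate 2 was 0% in gene bodies, 5.26% with a flank of 2 kb, 48% counting replicate 2 peaks within 500 bp and 8% where at least 50% of the shorter peak was shared. Leaving out each replicate in turn gave 3 to 4 loci, 1 promoter, a mean share of 3.60% to 5.13%, and 4 to 9 partner genes (9 without replicate 1). These settings count a peak in the remaining list, found at 25.0% of all protein-coding genes in replicate 1 against input and 35.7% in replicate 2. Within 1 kb of the 5′ end it was 3.87% and 4.16%. Reducing replicate 2 to as many peaks as replicate 1 gave 2 loci, Six3 and Six6. Joining peaks up to 10 kb apart, chosen after seeing the data, moved the mean domain length from 18.874 to 36.9 kb at Six3 and from 12.068 to 17.1 kb at Six6. The cause of other moves was not tested. No paired analysis was possible because no result comes from a test between groups. Differences between genes within each library are given in the report. Most peaks rest on a few tags, so a locus with no peak may carry a mark not detectable at this depth.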

Other observations

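The 44.974 kb between the Six3 and Six2 loci (chr17:85634303-85679276) held 6 input-called and 4 IgG-called peaks of replicate 1, which covered 1.76% and 1.79% of it, with 2 peaks shared, and 0 peaks of replicate 2. Their fold enrichment against input ran from 2.58 to 3.41, the upper end above that of any input-called peak at Six2 to Six6. Among the small noncoding RNA genes inside Six3, Gm27275 was covered to 98.9% in replicate 1 against both controls and to 0% in replicate 2.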
